A study of Adonis amurensis with 6 samples.

Results

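Metallothionein unigenes of Adonis amurensis, an early spring flower of the family Ranunculaceae, were followed through flower development. The members were chosen by name, as the unigenes of the deposited table whose Swiss-Prot match carries the word metallothionein, 18 of 190353 unigenes. CL7365.Contig3 is among them and was also chosen by its FPKM in young alabastrum, the highest of all unigenes there, so its level in that library is a description and not a finding. Floral organs of plants grown in an open field were sequenced as 1 library per stage. The stages were the differentiating flower bud (FBD), the young closed bud or young alabastrum (YA), the bud with visible color (VCA), the flower at early flowering (EFS) and at full bloom (FBS), and the senescing flower (SFS). FBD, YA and VCA were labelled as flower bud, and EFS, FBS and SFS as flower. No genotype, treatment or plant age is given in the sources used here, and all stages were sampled at the same time. Since no stage was replicated, the spread between plants is unknown and no p-value is given.

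Metallothioneins are small cysteine-rich proteins that bind copper, zinc and other metal ions through the sulphur of their cysteines. Plant metallothioneins are sorted into types by the arrangement of these cysteines. In Arabidopsis, type 1 and type 2 genes are known from leaves, stems and vascular tissue, type 3 genes from leaves and, in other plants, from ripening fruit, and type 4 genes from seeds. They are known for keeping copper and zinc in balance, for scavenging reactive oxygen species, and for their high transcript levels in ageing leaves, where metals are moved out of dying tissue.

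By the names of their best matches, 13 members were type 2 and 5 were type 3, and no member was named type 1 or type 4. The 18 members matched 9 Swiss-Prot entries of other plants, with E values from 5.8e-31 to 3.1e-07, so a type is the name of a relative and not a sequence analysis of Adonis amurensis. Of the members, 13 were contigs of 8 sequence clusters (a shared CL number marks contigs of similar sequence) and 5 stood alone. FPKM counts fragments relative to the length of a unigene and to the mapped reads of the library, which is meant to make levels comparable between unigenes. The lengths of the unigenes were not examined here, so ranks and shares rest on the deposited FPKM. RSEM divides reads that match several contigs among them, so the FPKM of a single contig within a cluster is less certain than their sum. In YA to SFS, 13 members had an FPKM above 0 in at least 1 library, 12 reached an FPKM of 1 and 10 reached 10. The other 5 members were listed at 0 in all 5 of these libraries and had an FPKM above 0 in FBD only.

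The FBD library is given apart. Between YA and FBD, 99.7% of the 105777 unigenes reaching an FPKM of 1 in one of them or both differed 2-fold or more, and the metallothioneins were split in the same way. With FBD set against the average of YA to SFS, 5 of the 18 members were at least 20-fold higher in FBD, 12 were at least 20-fold lower, and 1 was below an FPKM of 1 on both sides. Of 2623 unigenes with an average of at least 50 FPKM in YA to SFS, 2604 were at least 20-fold lower in FBD. Of 2462 with at least 50 FPKM in FBD, 2449 were at least 20-fold higher there. The average can rest on few stages, as in CL16373.Contig2, counted as lower, at 1.17 FPKM in FBD and 1.06 in EFS. No ratio to FBD was therefore read as a change between stages. Whether the FBD library is of the species and tissue its label gives was not tested, and its values stand under that doubt. Summed FPKM was between 724656 and 755345 in the 6 libraries. Depth relative to YA, estimated from unigenes with low FPKM, was between 1.01 in VCA and 1.15 in EFS, and 0.804 in FBD, where only 22 of 135 unigenes lay in the peak that gives the estimate. Floral homeotic unigenes were present in every library. The sum of unigenes matching PMADS 2, a petunia B-class protein of petals and stamens, was 3.38 FPKM in FBD and between 480 and 824 FPKM in the other 5, and that of GLOBOSA, the snapdragon protein of the same class, was 217 FPKM in FBD and between 82.8 and 183 FPKM in the other 5.

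Metallothionein transcripts made up a growing part of the open flower. The summed FPKM of the family was 3809.9 in YA and 2776 in VCA, then 5965 in EFS, 9891 in FBS and finally 19579 in SFS, with 667 in FBD. The sum was lowest of the 5 stages in VCA and higher in each later library than in the one before it. SFS thus had 5.14 times the sum of YA (a log2 ratio of 2.36; log2 ratios here are of FPKM + 0.1, whereas folds are quotients of the FPKM themselves). Of the consecutive pairs, only EFS over VCA passed a 2-fold ratio, at 2.15-fold. Which pairs passed depended on the scaling. With each library divided by the summed FPKM of its actin unigenes (the actin sum), EFS over VCA did not (a log2 ratio of 0.94) while FBS over EFS (1.27) and SFS over FBS (1.58) did, and with division by the median ratio of unigenes to their geometric mean over the 5 libraries (the median ratio), SFS over FBS did as well (1.17). SFS was 1.98-fold higher than FBS, FBS 1.66-fold higher than EFS, and VCA stood at 0.729 of YA. As a share of the summed FPKM of the whole library, the family held 0.512% in YA, 0.367% in VCA and 0.814% in EFS, followed by 1.36% in FBS and 2.70% in SFS. In these whole floral organs, more cells of a type and more transcript per cell cannot be told apart.

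**Figure D1:**
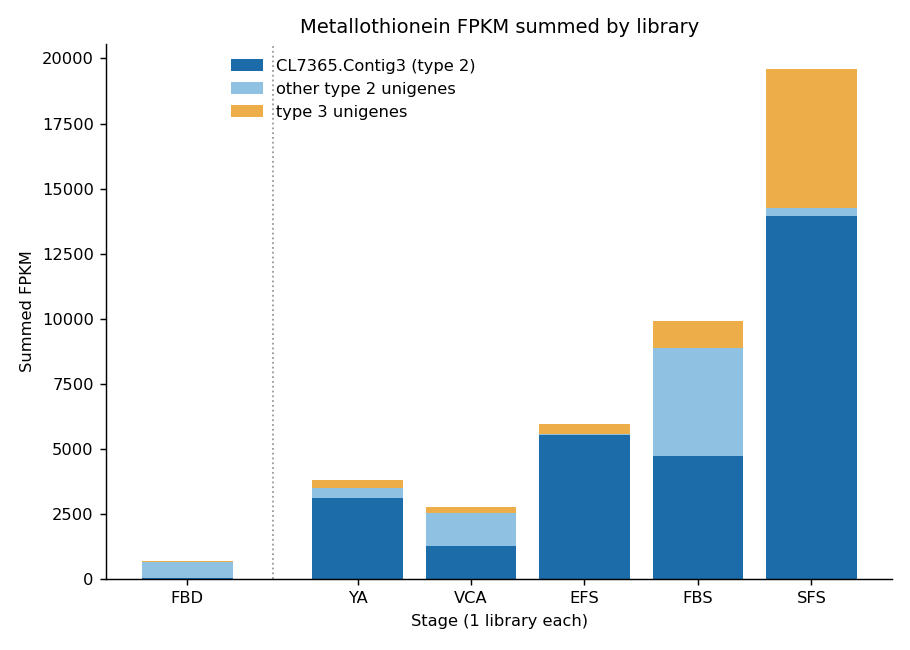
Summed FPKM (y axis) of the metallothionein unigenes in each library (x axis, 1 library per stage, FBD set apart by the dotted line), divided into CL7365.Contig3, the other type 2 unigenes and the type 3 unigenes. The bars reach 3809.9 FPKM in YA and 19579 FPKM in SFS, and the type 3 segment is widest in SFS, at 5316 FPKM.

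Both types were lower in VCA than in YA and highest in SFS, but in different proportions. The type 2 sum was 3488 FPKM in YA and 2548 in VCA, then 5568 in EFS, 8867 in FBS and finally 14263 in SFS, which makes SFS 4.09-fold higher than YA. The type 3 sum was 322 FPKM in YA, 228 in VCA and 397 in EFS, followed by 1024 in FBS and 5316 in SFS, which makes SFS 16.5-fold higher than YA. Type 3 passed a 2-fold ratio in both late pairs, at 2.58-fold for FBS over EFS and 5.19-fold for SFS over FBS, whereas type 2 passed it only for EFS over VCA, at 2.19-fold. With the actin sum, type 2 passed it in both late pairs as well (log2 ratios of 1.21 and 1.28) and no longer for EFS over VCA (0.96), and type 3 kept the higher ratio in both late pairs, at 1.91 and 2.97. The share of type 3 in the family was between 6.66% and 10.4% in YA to FBS and 27.2% in SFS.

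CL7365.Contig3, matched to type 2 of kiwifruit (Actinidia deliciosa), carried most of the family. Its FPKM was 3098 in YA and 1262 in VCA among the buds, and 5509.9 in EFS, 4722 in FBS and finally 13954 in SFS among the flowers, with 21.4 in FBD. It was the unigene with the highest FPKM of the library in YA and ranked 16 in VCA, 2 in both EFS and SFS, 3 in FBS and 6234 in FBD. It held 81.3% of the family sum in YA, 92.4% in EFS and 71.3% in SFS, but 45.5% in VCA and 47.7% in FBS. The level was 4.50-fold higher in SFS than in YA, 4.37-fold higher in EFS than in VCA and 2.96-fold higher in SFS than in FBS. In VCA it was 0.407 of YA, a log2 ratio of -1.30. FBS and EFS lay within 2-fold of each other, at 0.857.

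The sum without this contig, examined once its size was known, followed another course. It was 712 FPKM in YA and 1514 in VCA, then 455 in EFS, 5169 in FBS and finally 5625 in SFS. VCA was then higher than YA (a log2 ratio of 1.09) and EFS lower than VCA (-1.73), the reverse of the whole family. CL7365.Contig2, which can share reads with the contig left out, supplied most of that rise in VCA. Without both, the sum was 651 FPKM in YA and 711 in VCA, then 410 in EFS, 2776 in FBS and finally 5525 in SFS, within 2-fold for VCA over YA (0.13) and for EFS over VCA (-0.79). Type 3 alone had the direction of the whole family in both pairs (-0.50 and 0.80). For SFS over YA the ratio of the rest was 7.90-fold, all of it from type 3, since the type 2 sum without CL7365.Contig3 was 309 FPKM in SFS and 390.4 FPKM in YA.

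CL7365.Contig2 belongs to the same sequence cluster and has the same best match in kiwifruit. Its FPKM was 61.2 in YA, 803 in VCA and 45.1 in EFS, followed by 2393 in FBS and 100.4 in SFS, with 2.66 in FBD. It was high in VCA and FBS, the stages where CL7365.Contig3 stood lower than in both neighbouring stages. Of the FPKM of both contigs together, CL7365.Contig2 held 38.9% in VCA and 33.6% in FBS, and 1.94% in YA, 0.811% in EFS and 0.714% in SFS. Together the pair reached 3159 FPKM in YA and 2064 in VCA, then 5555 in EFS, 7115 in FBS and finally 14054 in SFS. The pair and the third contig of the cluster, which has no Swiss-Prot name and an FPKM between 32.1 and 74.6, gave no 2-fold difference for VCA over YA (a log2 ratio of -0.61), FBS over EFS (0.36) or SFS over FBS (0.97), although at least 1 of its contigs did in each pair. Only EFS over VCA (1.42) and SFS over YA (2.14) passed it. Among 625 pairs of cluster and best match with at least 2 contigs and a summed FPKM of at least 50 in each of the 5 libraries, the share of the leading contig moved by a median of 12.1 percentage points. In CL7365 it moved by 38.2 points, and 27.4% of those compared moved at least as much.

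**Figure D2:**
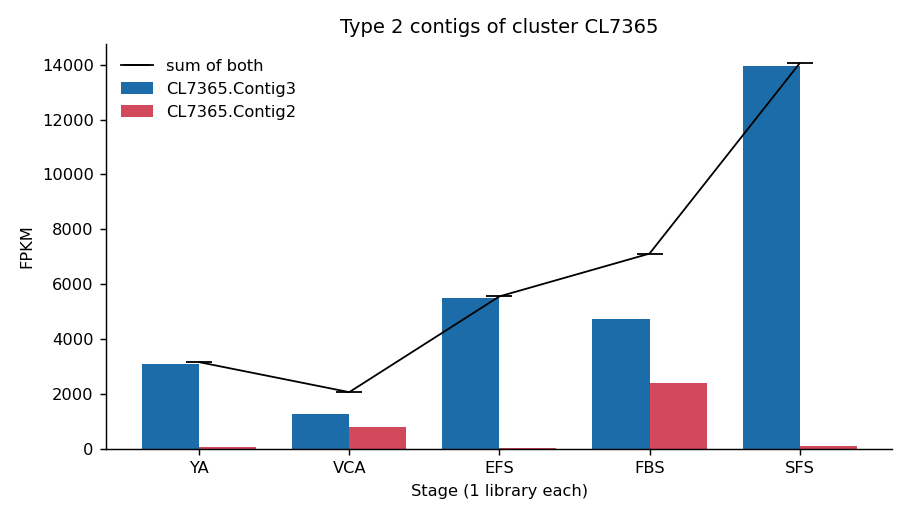
FPKM (y axis) of the type 2 contigs CL7365.Contig3 and CL7365.Contig2 in the libraries YA to SFS (x axis, 1 library per stage), with the line giving the sum of both. CL7365.Contig2 reaches 803 FPKM in VCA and 2393 FPKM in FBS and is 100.4 FPKM or less in the other 3 libraries, while the sum is lowest in VCA and highest in SFS.

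Of the remaining 11 type 2 unigenes, 5 stayed below an FPKM of 1 in YA to SFS, and the others were each high in 1 or 2 of these libraries. CL30441.Contig1, matched to chickpea (Cicer arietinum) type 2 and, in Nr, to a metallothionein of Coptis japonica, another member of the Ranunculaceae, was a unigene of the buds. Its FPKM was 274 in YA, 478 in VCA and 10.2 in EFS, followed by a listed 0 in FBS and 10.1 in SFS. EFS was lower than VCA by a log2 ratio of -5.54, and SFS lower than YA by -4.75. CL30441.Contig2, a low contig of the same cluster, was listed at 6.61 FPKM in YA and 1.59 in VCA and at 0 in the other 3 libraries, so both contigs of the cluster were highest in closed buds.

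CL16373.Contig2, with the same best match in chickpea, was high only in FBS and SFS. Its FPKM was 1.61 in YA and 2.41 in VCA among the buds, and 1.06 in EFS, 1479.6 in FBS and finally 196 in SFS among the flowers. It ranked 21 among all unigenes of FBS, and was 1396-fold higher in FBS than in EFS. SFS was lower than FBS by a log2 ratio of -2.91 and higher than YA by 6.84. The only other contig of this cluster, CL16373.Contig1, was listed at 5.91 FPKM in FBS and at 0 elsewhere. No contig of the cluster in the table therefore carried the FPKM before FBS.

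CL28958.Contig1, matched to type 2b of taro (Colocasia esculenta), had an FPKM of 45.1 in YA and 0.77 in VCA, then 0.56 in EFS, 255 in FBS and finally 1.94 in SFS. It was high in YA and again in FBS, and below 2 in the libraries between and after them. CL27293.Contig1, again matched to chickpea, reached 10.8 FPKM in FBS and stayed below 1 in the other 4 libraries. It is grouped with contigs matched to unrelated proteins, among them a subunit of oligosaccharyltransferase, so the sum of its cluster is not a metallothionein level. In 1 case, CL27293.Contig1, FBS was more than 10-fold above each of the other 4 stages, at 11.7 times the next highest. Of the 19743 unigenes that reached an FPKM of 10 in YA to SFS, 1.02% had that pattern for FBS. For CL16373.Contig2 and CL28958.Contig1, FBS stood 7.54 and 5.67 times above the next highest stage.

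**Figure D3:**
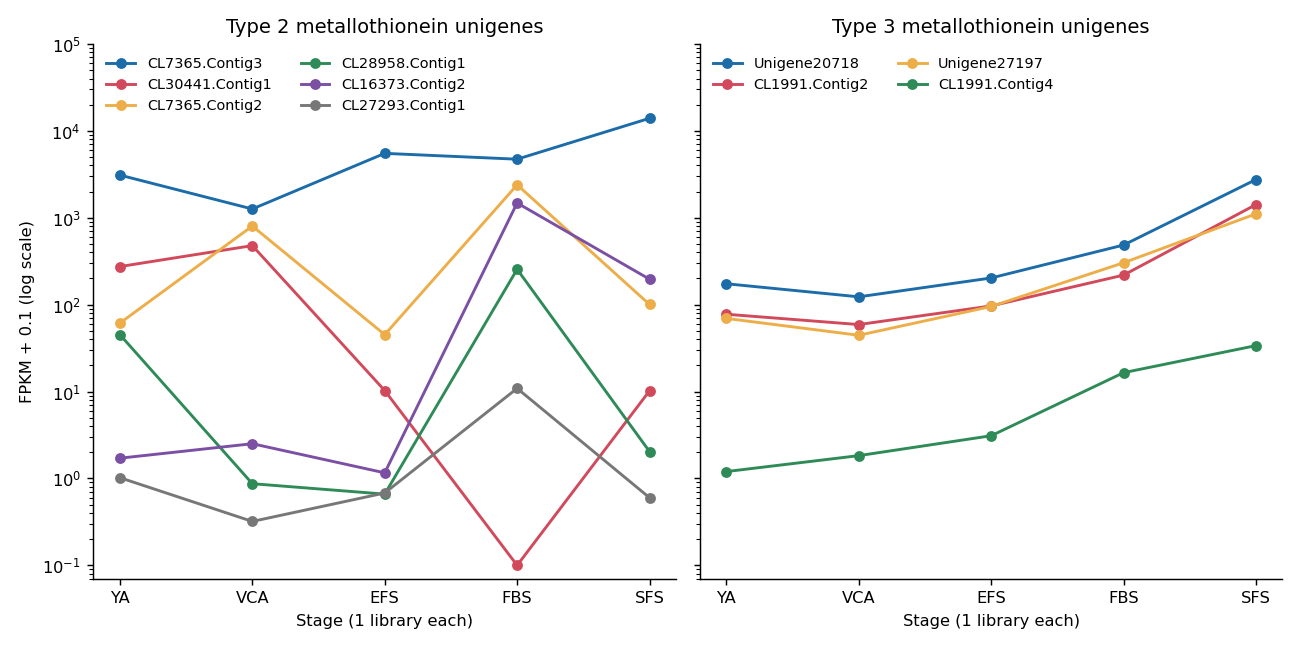
FPKM plus 0.1 (y axis, log scale) of the 10 metallothionein unigenes that reached an FPKM of 10 in YA to SFS, by stage (x axis, 1 library each), with type 2 on the left and type 3 on the right. The type 3 lines run side by side and end highest in SFS, whereas the type 2 lines cross, with 4 of the 6 peaking in FBS.

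The type 3 unigenes rose together. Unigene20718, CL1991.Contig2, Unigene27197 and CL1991.Contig4 all had type 3 of papaya (Carica papaya) as their best match. Unigene20718 had an FPKM of 174 in YA, 123 in VCA and 203 in EFS, followed by 485 in FBS and 2754 in SFS, where it ranked 8 among all unigenes. CL1991.Contig2 had 77.5 in YA and 58.9 in VCA, then 96.6 in EFS, 219 in FBS and finally 1419 in SFS. Unigene27197 had 69.4 in YA, 44.3 in VCA and 95.2 in EFS, followed by 303 in FBS and 1109 in SFS.

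These 3 unigenes were lowest in VCA, and higher in FBS and SFS than in any earlier library. SFS was 15.8-fold higher than YA for Unigene20718, 18.3-fold for CL1991.Contig2 and 16.0-fold for Unigene27197. SFS was also 5.67-fold, 6.48-fold and 3.66-fold higher than FBS in the same order. CL1991.Contig4 was low, at 1.10 FPKM in YA and 1.73 in VCA among the buds, and 3 in EFS, 16.4 in FBS and finally 33.7 in SFS among the flowers, and was 30.6-fold higher in SFS than in YA. Unlike the other 3, it was not lowest in VCA.

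The profiles of Unigene20718 and CL1991.Contig2 were nearly the same. As a measure of likeness, the root mean square difference of their log2(FPKM + 0.1) over the 5 libraries was calculated after each was centred on its own mean. It was 0.0744 between these unigenes and 0.277 between Unigene20718 and Unigene27197, compared with 2.86 between CL7365.Contig3 and CL7365.Contig2. Unigene20718 held between 47.4% and 54.0% of the type 3 sum in each of the 5 libraries. Whether the type 3 unigenes are separate genes or parts of fewer genes was not tested, and the points share the same 5 libraries.

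Counted by unigene, most members were higher in FBS than in EFS. With members tested where 1 of the libraries reached an FPKM of 1, and a log2 ratio of 1 or more counted as a change, 9 of 11 members were higher in FBS than in EFS, 1 was lower (CL30441.Contig1) and 1 changed less (CL7365.Contig3). Among all 65397 unigenes under the same rule 33.0% were higher and 32.5% were lower in FBS, and with the actin sum 44.7% and 23.4%. Of the 11 members, 3 passed the filter only through FBS and had to be counted as higher, or nearly so. Of the 7 with an FPKM of at least 1 in both libraries, 6 were higher and none was lower. The median log2 ratio of the 11 members was 2.41, and 0.02 over all unigenes.

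Before that, in the buds and opening flowers, fewer members passed a 2-fold ratio upwards. For VCA over YA, 1 of 10 members was higher (CL7365.Contig2) and 3 were lower, with 30.0% of all unigenes higher and 31.8% lower. Of the 3 lower, CL28958.Contig1 passed the filter only through YA and had to be lower, or nearly so. The median log2 ratio was -0.45 for the members and -0.05 for all. For EFS over VCA, 2 of 9 members were higher, CL7365.Contig3 and Unigene27197, and 4 were lower. Of all unigenes, 28.0% were higher and 38.3% lower. Of the 4 lower members, CL30441.Contig2 passed the filter only through VCA and had to be lower, or nearly so. The median log2 ratio of this pair was nevertheless 0.71 for the members, and -0.37 for all. The shares of VCA over YA were near or below those of all unigenes, and those of EFS over VCA rest on 9 members.

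Between full bloom and senescence both type sums were higher in SFS, while single members went either way. For SFS over FBS, 6 of 11 members were higher, with 29.1% of all unigenes higher, and 5 were lower, with 35.8% of all lower (40.4% and 28.0% of all with the actin sum). The 6 were CL7365.Contig3, the 4 type 3 unigenes and CL30441.Contig1, which was at 10.1 FPKM in SFS, against a listed 0 in FBS. The 5 that were lower were all type 2, and 2 of them, CL27293.Contig1 and CL16373.Contig1, passed the filter only through FBS and had to be lower, or nearly so. Of the 8 with an FPKM of at least 1 in both libraries, 5 were higher and 3 lower. For SFS over YA, 6 of 10 members were higher, with 29.1% of all unigenes higher, and 3 were lower, with 46.8% of all lower. Of these 3, CL30441.Contig2 passed the filter only through YA and had to be lower, or nearly so. Those shares of all unigenes turned to 43.9% higher and 31.6% lower with the actin sum, and were 36.0% and 38.2% with the median ratio, while 7 members were then higher and 3 lower under both. The unscaled median log2 ratio for SFS over YA was 3.08 for the members and -0.78 for all unigenes. Contigs of 1 cluster share reads and are not independent, so the counts describe these unigenes only.

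**Figure D4:**
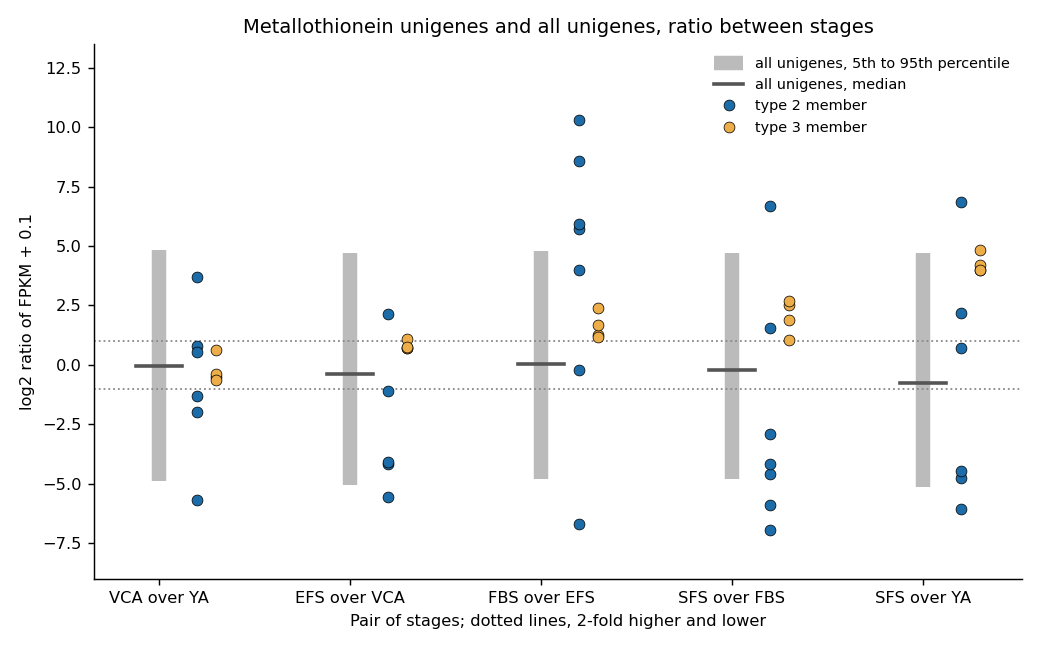
Log2 ratio of FPKM + 0.1 (y axis) of each metallothionein member that passed an FPKM of 1 in either library, for 4 consecutive pairs of stages and for SFS over YA (x axis), beside the 5th to 95th percentile (grey bar) and the median (dark line) of all unigenes under the same filter. All 4 type 3 members lie above the upper dotted line (2-fold higher) in FBS over EFS, SFS over FBS and SFS over YA, while type 2 members lie on both sides.

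In highly expressed unigenes changes of 2-fold are less frequent, so the members were also read against unigenes that reached an FPKM of 50 in the higher library, a background added with the values known. For FBS over EFS, 6 of 7 members were higher, with 21.8% of 3445 unigenes higher. Of these 6, 3 passed only through FBS, and of the 4 members at 50 or more in both libraries 3 were higher. For SFS over FBS, 4 of 7 members were higher and 3 were lower, with 20.9% of 3354 unigenes higher and 20.3% lower. Of the 3 lower, 1 passed only through FBS. The 6 members at 50 or more in both libraries were 4 higher and 2 lower. For SFS over YA, 5 of 7 were higher, with 32.2% of 3846 unigenes higher, and 1 was lower, with 34.9% of these unigenes lower. Of the 5 higher, 1 passed only through SFS, and the 1 lower passed only through YA. The 5 members at 50 or more in both libraries were 4 higher and 0 lower.

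The summed FPKM of other lists of metal handling differed less between SFS and YA than that of either metallothionein type. It was 1.56-fold higher in SFS for metal transporters and 1.51-fold for other metal-binding proteins. For type 2 the contrast rested on CL7365.Contig3, since without it the type 2 sum in SFS was 0.793 of YA. The lists were taken from Swiss-Prot names. Metal transporters, which carry zinc, copper, iron and manganese across membranes, had 234 unigenes in the table. Of the 109 that reached an FPKM of 1 in YA or SFS, 34 were higher in SFS and 37 lower, with a median log2 ratio of -0.18. Under the same rule 29.1% of all unigenes were higher and 46.8% lower, with a median of -0.78. Their summed FPKM was 1168 in SFS and 747 in YA. The highest were Unigene27517 (metal tolerance protein 1, a zinc transporter of the vacuole in Arabidopsis), at 121 FPKM in SFS and 62.3 in YA, and CL8973.Contig3 (zinc transporter 2), at 117 FPKM in SFS and 8.01 in YA. CL8973.Contig3 was higher in each later library, with 14.9 FPKM in VCA, 24.8 in EFS and 43.1 in FBS. The largest differences in either direction were in low unigenes, with Unigene6755 (metal transporter Nramp3) at 4.26 FPKM in SFS and a listed 0 in YA, and CL15912.Contig7 (copper-transporting ATPase HMA5) at 0.1 FPKM in SFS and 7.96 in YA.

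Among other metal-binding proteins, which include ferritin, copper chaperones and heavy metal-associated isoprenylated plant proteins, 19 of 54 unigenes were higher in SFS than in YA and 20 were lower, with a median log2 ratio of -0.05. The shares over all unigenes were 29.1% higher and 46.8% lower, with a median of -0.78. CL16094.Contig1 (isoprenylated plant protein 26) had 114 FPKM in YA and 125 in VCA, then 218 in EFS, 376 in FBS and finally 82.3 in SFS, and was thus highest in FBS. CL12336.Contig1 (copper transport protein CCH, a copper chaperone) had 158, 103, 271, 126 and 216 FPKM in the same order. CL13323.Contig2, also matched to isoprenylated plant protein 26, was 1.78 in YA, 3.6 in VCA and 4.29 in EFS, followed by 131 in FBS and 78.7 in SFS, and like the metallothionein CL16373.Contig2 was low up to EFS and highest in FBS. Unigene17950 (cytochrome c oxidase copper chaperone 1) was at 0.25 FPKM in SFS and 14.3 in YA.

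Glutathione, the other main cysteine-containing metal ligand of plants and the building block of phytochelatins, is made by glutamate-cysteine ligase and glutathione synthetase. Of 9 unigenes of these enzymes, 1 was higher in SFS than in YA and 6 were lower, with a median log2 ratio of -2.57. Over all unigenes 29.1% were higher and 46.8% lower, with a median of -0.78. The median of the list rests on few unigenes, and its summed FPKM was 46.8 in SFS and 60.8 in YA. CL16781.Contig1 and CL16781.Contig3, contigs of 1 cluster matched to glutamate-cysteine ligase of tobacco, were at 34.5 and 0.14 FPKM in SFS and at 25.9 and 10.8 FPKM in YA. Unigene39524, matched to a glutamate-cysteine ligase of rice, was at 1.19 FPKM in SFS and 0.41 in YA.

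Antioxidant enzymes (superoxide dismutase, catalase, ascorbate peroxidase and glutathione peroxidase) were higher in 10 and lower in 14 of 43 unigenes for SFS over YA, with a median log2 ratio of 0.35. All unigenes were 29.1% higher and 46.8% lower, with a median of -0.78. The summed FPKM of the antioxidant enzymes was 5658 in SFS and 3349 in YA. The highest were CL26112.Contig5 and CL26112.Contig1, matched to phospholipid hydroperoxide glutathione peroxidase, at 1655 and 1619.5 FPKM in SFS and at 583 and 705 FPKM in YA. CL12961.Contig4 (ascorbate peroxidase T) was at 45.2 FPKM in SFS and 7.89 in YA, and CL16047.Contig3 (an iron superoxide dismutase) at a listed 0 in SFS and 6.65 FPKM in YA.

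Senescence-associated unigenes were listed with the cysteine proteinases and vacuolar-processing enzymes of protein breakdown. They were higher in SFS than in YA in 10 of 15 cases and lower in 3, with a median log2 ratio of 1.65. Among those reaching an FPKM of 5 in SFS or YA, 3 were higher and 3 lower. The summed FPKM of the list was 436 in SFS and 159 in YA, and most of the sum in SFS came from a single contig. That contig, CL5540.Contig3 (vacuolar-processing enzyme), had 57.8 FPKM in YA, 36.2 in VCA and 40.3 in EFS, followed by 117 in FBS and 344 in SFS. Like the 3 highest type 3 metallothioneins, this single contig was lowest in VCA and highest in SFS. Its cluster neighbour CL5540.Contig1 was at 3.19 FPKM in SFS and a listed 0 in YA, but at 9.9 in VCA and 0.15 in EFS. The lowest stage of the contig therefore need not be that of its cluster. Unigene33986 (cysteine proteinase RD19a) was at 24.3 FPKM in SFS and 65.8 in YA, and Unigene14178 (a senescence-associated carboxylesterase) at 0.84 in SFS and 6.37 in YA. The background for SFS over YA in all of these lists is the 29.1% of all unigenes that were higher and the 46.8% that were lower, with a median of -0.78.

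**Figure D5:**
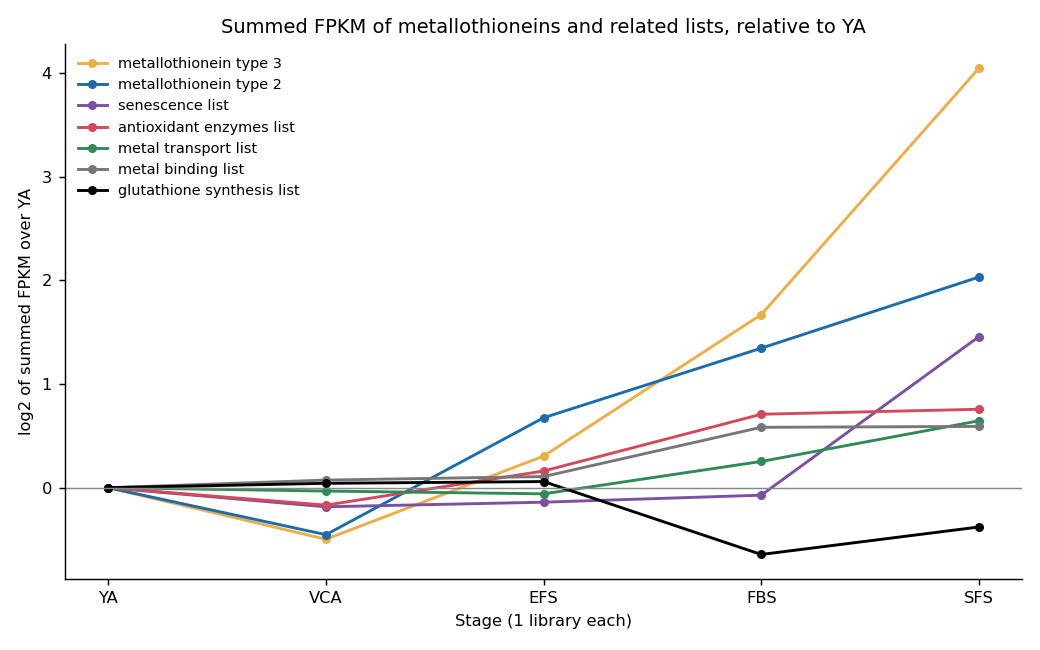
Log2 of the summed FPKM over that of YA (y axis) for type 3 and type 2 metallothioneins and for 5 lists of related genes, by stage (x axis, 1 library each). In SFS type 3 stands at 4.05, type 2 at 2.03 and the senescence list at 1.46, while the other 4 lists lie between -0.38 and 0.76. Without CL7365.Contig3 the type 2 value for SFS is -0.34. Of the senescence list, the single contig CL5540.Contig3 holds 344 of 436 FPKM in SFS and 57.8 of 159 FPKM in YA.

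Genes of particular tissues also differed between the libraries. The 107 unigenes of green tissue (chlorophyll a-b binding proteins and the small subunit of Rubisco) summed to 10000.1 FPKM in YA and 12878 in VCA, then 12542 in EFS, 5336 in FBS and finally 17314 in SFS, with 78 of them above 0 in these 5 libraries. This sum was lowest in FBS, where the metallothionein sum was the second highest, and highest in SFS, where the metallothionein sum was highest too. The 144 unigenes with pollen, tapetum or exine names, 109 of them above 0, summed to 2097 FPKM in YA, 2276 in VCA and 4390 in EFS, followed by 3322 in FBS and 2751 in SFS. Their sum was lower in FBS than in EFS. Of the type 2 metallothioneins that reached an FPKM of 10, 4 were highest in FBS. The 94 unigenes of seed storage and late embryogenesis proteins, 74 of them above 0, summed to 2103 FPKM in SFS and 4220 in YA. The 75 unigenes with names of floral homeotic and AGAMOUS-like proteins, 58 of them above 0, summed to 871 FPKM in SFS and 1563 in YA. A list of genes that every cell uses, with 366 unigenes of GAPDH, ubiquitin, actin, tubulin and elongation factor 1-alpha, summed to 6993 FPKM in SFS and 12237 in YA. The 10 highest unigenes held 7.94% of the summed FPKM in SFS and 2.81% in YA, CL7365.Contig3 among them in both. The part of tissue composition in the metallothionein levels was not tested.

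The unigenes whose course over YA to SFS was most like the family sum came from unrelated families. Among 3888 candidates named in Swiss-Prot that reached an FPKM of 50 in any of the 5 libraries, the nearest was Unigene30414 (3-ketoacyl-CoA synthase 6, an enzyme of cuticular wax synthesis in Arabidopsis), at a root mean square difference of 0.0811. Its FPKM was 76.9 in YA and 56.1 in VCA among the buds, and 129 in EFS, 199 in FBS and finally 455 in SFS among the flowers. The next were CL4929.Contig2 and CL4929.Contig1 (CASP-like protein), at 0.0921 and 0.151, Unigene17358 (peptide methionine sulfoxide reductase, which repairs oxidised methionine), at 0.142, and CL6551.Contig2 (caffeoylshikimate esterase, of lignin synthesis), at 0.144. In all, 211 (5.43%) lay within 0.5. For CL7365.Contig3 alone the nearest were CL694.Contig3 (heat shock cognate 70 kDa protein) at 0.069, CL27298.Contig2 (auxin-induced protein X10A) at 0.157 and Unigene30586 (uncharacterized) at 0.2005, and 60 (1.54%) lay within 0.5.

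In FBD most of the family sum came from another unigene. CL16759.Contig2, matched to type 2 of castor bean (Ricinus communis), had an FPKM of 607 in FBD and between 0.14 and 0.72 in the other 5 libraries. It held 91.0% of the family sum of FBD and ranked 105 among its unigenes. CL6295.Contig2 (matched to type 2 of tomato) had 16.6 FPKM in FBD and Unigene113068 (matched to MT2A of Arabidopsis) had 4.13. Unigene144233 (type 3 of banana) had 3.04 and Unigene113300 (type 2 of kiwifruit) had 1 FPKM. CL6295.Contig1 stood at 0.61 in FBD. These last 5 unigenes were listed at 0 in YA to SFS. The type 3 sum was 10.9 FPKM in FBD, or 1.63% of its family sum. Of this, 7.86 FPKM came from the unigenes matched to papaya, which carried type 3 in YA to SFS as well. Of the members that reached an FPKM of 10 in YA to SFS, the highest in FBD was CL7365.Contig3, at 21.4 FPKM, and it was thus the second highest metallothionein of that library. Unigene20718 stood at 4.65 FPKM in FBD, between CL6295.Contig2 and Unigene113068.

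A further 17 unigenes carried the name metallothionein in another database and not in Swiss-Prot. Of these, 16 had it only through their orthologous group in KOG and matched TSO1 and tesmin/TSO1-like CXC proteins, which are DNA-binding proteins and no metallothioneins. Their sum was 32.5 FPKM in YA and 44.3 in VCA, then 9.98 in EFS, 4.39 in FBS and finally 6.56 in SFS, a course unlike that of the family. The last, Unigene33689, was named only through its nucleotide match and had an FPKM of 0.31 in YA, 0.61 in VCA and 0.54 in EFS, followed by 4.40 in FBS and 20.7 in SFS.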

How the data were processed

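Floral organs were sequenced as 1 Illumina library per stage, 6 in all. The authors assembled paired-end reads with Trinity, clustered contigs into unigenes and calculated FPKM with RSEM (sources used here give no versions). The deposited FPKM have 2 decimals and hold no read counts, and 2 lines of the table were left empty for this work. Depth behind a single FPKM is unknown. Depth relative to YA was the peak of log2 ratios of unigenes with FPKM from 0.2 to 2 in both libraries.

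Members, types and lists were taken from Swiss-Prot names, and were chosen with earlier results of these data known. Ratios are of log2(FPKM + 0.1), which understates changes of low unigenes, for unigenes reaching an FPKM of 1 in one or both libraries, and a change counted at 2-fold. Without replicates no test was made. Named were members reaching an FPKM of 10 in YA to SFS, the 5 highest in FBD, in each list the 2 highest and the largest ratio in each direction between SFS and YA, and the nearest profiles; others named were chosen after their values were seen. Contigs of a cluster divide reads, so a value of 0 is given as listed. Alternatives were pseudocounts of 1 and 0.01, no filter or an FPKM of 5, 3 scalings and sums per cluster. The counting was tested on simulated data. Scripts ran under Python 3.11.15 with pandas 2.3.3, numpy 2.4.6 and, for plots, matplotlib 3.10.9. Proteome, qPCR values and sequences were not analysed here.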

Additional observations from a re-analysis of the deposited data

How the results depend on the processing

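No paired analysis was possible because each stage has 1 library, and for the same reason no library could be left out of a stage. The scalings moved the median log2 ratio of all unigenes for SFS over YA to -0.09 with the median ratio and 0.58 with the actin sum, compared with -0.78 unscaled. Actin itself fell to 639 FPKM in SFS, against 1244 in YA. The family sum was 2-fold or more higher in SFS than in YA under every scaling and pseudocount tried and without CL7365.Contig3 or both CL7365 contigs.

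Around the 2-fold threshold, division by the actin sum gave log2 ratios of 0.94 (family) and 0.96 (type 2) for EFS over VCA, 1.27 and 1.21 for FBS over EFS, and 1.58 and 1.28 for SFS over FBS. Division by the median ratio gave 1.02 for type 3 in EFS over VCA and 1.17 for the family in SFS over FBS. Without CL7365.Contig3, chosen after the values were seen, VCA over YA was 1.09 (family) and 1.72 (type 2), EFS over VCA -1.73 and -4.47, FBS over EFS 3.50 and 6.16, and type 2 was -3.74 for SFS over FBS and -0.34 for SFS over YA. Without both CL7365 contigs, likewise chosen, EFS over VCA was -0.79 (family) and -5.22 (type 2), FBS over EFS 2.76 and 7.08, and type 2 was -3.07 for SFS over FBS and -0.65 for SFS over YA. As the sum of its cluster, CL7365.Contig2 reversed for VCA over YA (-0.61), EFS over VCA (1.42) and SFS over FBS (0.97).

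Counts of members moved as follows. Summed per contig cluster, with CL27293 holding contigs of unrelated proteins, 0 were higher and 1 lower for VCA over YA, 2 were lower for EFS over VCA, 5 higher for FBS over EFS and 3 lower for SFS over FBS. With metallothionein contigs only in each cluster, added after the values were seen, 0 were higher and 1 lower for VCA over YA, 2 lower for EFS over VCA, 6 higher for FBS over EFS and 3 lower for SFS over FBS. Without the filter 5 were lower for VCA over YA and 2 for FBS over EFS. At an FPKM of 5, 2 were lower for EFS over VCA, and 1 was higher with the actin sum.

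In the lists for SFS over YA, an FPKM of 5 gave 14 higher and 14 lower metal transporters and 9 and 8 metal-binding unigenes. It gave 0 and 1 glutathione and 6 and 9 antioxidant unigenes. The senescence list then had 3 higher and 3 lower, against 10 and 3 at an FPKM of 1. With the actin sum 24 metal transporters and 9 metal-binding unigenes were lower, 3 glutathione and 27 antioxidant unigenes higher and 1 senescence unigene lower, where all unigenes moved to 43.9% higher and 31.6% lower, against 29.1% and 46.8% unscaled. Per cluster, 11 metal-binding unigenes were higher and 12 lower, 3 antioxidant higher and 6 lower, and 5 senescence higher and 2 lower. The median ratio gave 16 antioxidant unigenes higher, and a pseudocount of 1 gave 0 glutathione unigenes higher.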

Other observations

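The higher metallothioneins of YA to SFS were listed in FBD at a small fraction of their mean over these 5 libraries. Single libraries could lie as low as FBD, as CL16373.Contig2 had 1.17 FPKM in FBD and 1.06 in EFS. Over the 8 members with a mean FPKM of at least 50 in YA to SFS, the FPKM of FBD was between 0.348% (CL16373.Contig2) and 0.66% (CL30441.Contig1) of that mean, with a median of 0.457%, although their courses over the 5 stages differed widely. CL7365.Contig3 stood at 0.375% and Unigene20718 at 0.622%. The members did not stand apart in this. Of the 2623 unigenes of the table with such a mean, 2604 had an FPKM in FBD of 5% or less of it, with a median of 0.413% and a 95th percentile of 0.92%. In the other direction, CL16759.Contig2, the leading metallothionein of FBD, had a mean in the other 5 libraries of 0.0689% of its FPKM in FBD. The median of the 2449 unigenes on that side was 0.0527%. The source of these low values was not tested.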
